A study of Mus musculus and Homo sapiens with 83 samples.

Results

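Mouse embryonic stem cells (mESCs) at day 6 of undirected differentiation were compared with mESCs at day 0, gene by gene and cell by cell, in the RNA libraries whose titles give these days. The comparison rests on 12 of the 83 samples of the series, 6 single cells a day, out of 24 mESC RNA libraries. All cells were of E14, a line derived from the 129/Ola strain. Day 0 cells came from dishes with MEF feeder cells (mouse embryonic fibroblasts) in medium with leukemia inhibitory factor (LIF). Day 6 cells had been dissociated, replated on gelatin and grown without LIF and without feeders. No other agent or genotype is named for either day, and the protocols directed the cells to no lineage. The RNA was cytoplasmic: AMAR-seq opens the cell membrane, draws the cytoplasm off on a chip and makes full-length cDNA from it by a Smart-seq2 protocol, leaving the nucleus for DNA assays that were not analysed here.

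LIF acts through its receptor and STAT3 to hold mESCs in the naive state of the early epiblast. Once it is withdrawn, naive cells pass through a formative state, in which naive transcription factors such as Klf2 and Tbx3 go down, Otx2, Pou3f1, Fgf5 and the de novo DNA methyltransferases come on, and Pou5f1 is kept. In the embryo the same step goes with the epiblast becoming a polarised epithelium, whose cells are held together by adherens and tight junctions.

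Each library is 1 cell and the labels name no separate cultures, so each day was treated as 1 sample. No test of a difference between the days was therefore made, and no p-value or standard error is given. The labels name no batch either, so the day and whatever processing its cells shared cannot be told apart. Values are levels in reads per 1000000 gene reads (CPM), not corrected for gene length. For a gene in single cells, 3 values stand for its lowest, median and highest level over the 6 cells of a day. For the summed reads of a day, the range in parentheses is the 95% exact Poisson interval, which covers counting error only, since the reads carry no molecular identifiers. Differences are log2 ratios of day 6 over day 0 of summed CPM plus 1 CPM, less the median over all measured genes, and are called relative log2 ratios. That median was 0.49, so a gene with no relative difference had a higher CPM at day 6. The 15117 genes with 20 reads or more in the 12 libraries together, spread over 2 libraries or more, are called measured.

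Gene reads per cell numbered 5800503 to 8801553 at day 0 and 8894830 to 16367029 at day 6. No pair of the 30 compared within a day looked like 1 library deposited in duplicate, with a smallest chi-square per degree of freedom of 186 at day 0 and 167 at day 6. CT010467.1, handled here as ribosomal RNA, took 34.3% to 58.1% of gene reads at day 0 and 19.4% to 47.1% at day 6, and it was the gene with the most reads on both days. The next in reads were mt-Rnr2, mt-Co1, Dppa5a and mt-Nd1 at day 0 and mt-Rnr2, mt-Co1, Gapdh and Grik3 at day 6. Each cell carried reads of 8 to 10 of 11 mESC markers at day 0 and of 9 or 10 of 11 at day 6, where any read counted. By this count alone cell types are not told apart. Day 0 cell 6 also carried 10 of 11 markers of extraembryonic endoderm, and day 6 cell 6 carried 9 of 11. In level, mESC markers summed to 3005 to 15650 CPM per cell, mostly Dppa5a, and the endoderm markers to 0.280 to 140 CPM. The mESC marker Sox2 had 0 reads in all 12 libraries. It lies inside the transcribed unit of Sox2ot, and reads of overlapping genes cannot be told apart where the strand setting of the counting is not given. Feeder fibroblast markers, 19 in all, summed to 0.229 to 255 CPM in day 0 cells and to 1.91 to 55.2 CPM in day 6 cells. Day 0 cell 6 held the highest sum, with reads of 14 of the 19.

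Cells of day 0 differed widely in how many genes they showed. At a common depth of 1000000 gene reads, day 0 cells 1 to 6 showed 3455, 4334, 6412, 8424, 9709 and 9820 genes with a read. At day 6 the cells showed 9149, 8898, 7207, 8882, 9031 and 11125 genes. The median was 7418 at day 0 and 8965 at day 6, but the days overlapped, since 3 day 0 cells exceeded the lowest day 6 cell.

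The day 0 cells with few genes were those rich in reads of the mitochondrial genome. Such reads made up 24.2%, 11.8%, 17.8% and 15.5% of gene reads in day 0 cells 1 to 4, against 3.29% and 4.09% in cells 5 and 6 and 2.96% to 7.50% in the day 6 cells. The median of cells 5 and 6 alone was 9764 genes, above the day 6 median. Without both CT010467.1 and the mitochondrially encoded genes, day 0 cells 1 to 4 still showed 4322, 5459, 7754 and 9528 genes, and cells 5 and 6 showed 11886 and 12048. At the depth as deposited the 6 day 0 cells showed 5660, 6815, 9822, 11626, 16972 and 15503 genes, and the day 6 cells 10637 to 14066. At 1000000 reads the order of the days thus turned on the cells included. At 500000 reads it did not, with medians of 6482 genes at day 0, 8111 in cells 5 and 6, and 8169 at day 6. Nor did it when 5 reads in 1000000 were asked for, with medians of 4360 genes at day 0, 5238 in cells 5 and 6, and 6576 at day 6. The part of mitochondrially encoded reads in these differences was not tested.

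**Figure D1:**
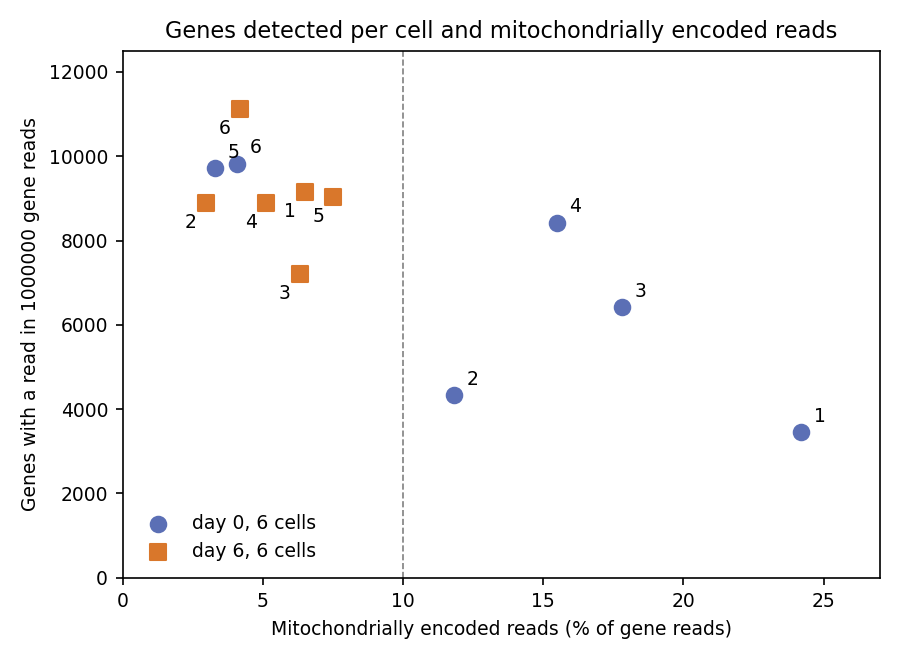
Genes with a read in 1000000 gene reads of each cell (vertical axis) against the percentage of its gene reads from mitochondrially encoded genes (horizontal axis), for 6 day 0 cells (circles) and 6 day 6 cells (squares), numbered as in the text. The 4 day 0 cells right of the dashed line at 10% show 3455 to 8424 genes, and the 2 left of it lie among the day 6 cells.

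Genes with reads in every cell were more numerous at day 6, where no cell showed as few genes as day 0 cells 1 and 2. Of 23661 genes with a read in any cell, 6072 had reads in all 6 day 6 cells, 2779 in all 6 day 0 cells and 2415 in all 12. Of the 6072 genes, 5654 also had reads in both day 0 cells low in mitochondrially encoded reads. In a random draw of 1000000 reads per cell the counts were 3766 for day 6, of which 3097 were read in both of these day 0 cells, and 1367 for day 0. At the other end, 4354 genes had reads in day 0 cells only and 2100 in day 6 cells only at the deposited depth. In that draw they were 2888 and 3067. With CT010467.1 and the mitochondrially encoded genes set aside before a further random draw, the counts were 3789 and 2438. Which day held more such genes thus depended on the reads that were matched. Reads in all 6 day 6 cells and in no day 0 cell were found for 13 genes, among them Car4, a membrane-anchored carbonic anhydrase, and Ascl2, a bHLH factor of trophoblast and a WNT target. The reverse was found for 1 gene, the predicted gene Gm13274, with 14 reads in all. Ascl2 and Gm13274 are named after their values were seen. Ascl2 had 0, 0 and 0 CPM at day 0 and 0.305, 3.88 and 15.0 CPM at day 6, so all 6 day 6 cells carried it at a low level.

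Over all measured genes the relative ratio was 2-fold or more higher at day 6 for 3833 genes (25.4%) and 2-fold or more lower for 3493 (23.1%). These counts shift with the scaling: without subtracting the median gene they were 5500 and 2187, and with the median CPM over cells in place of the summed reads they were 4651 and 1040. Many of them rest on single cells. A 2-fold ratio held without each cell in turn for 1787 higher (11.8%) and 1011 lower genes (6.69%).

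Leaving out the 4 mt-rich day 0 cells kept the numbers and changed many of the genes. Against cells 5 and 6, 3859 genes (26.9% of 14328 measured) were 2-fold or more higher and 3559 (24.8%) 2-fold or more lower at day 6. Shares were taken over the 14328 genes measured in both versions, which hold 3816 of the 3833 higher and 3022 of the 3493 lower genes of all cells. Of the higher genes 2604 were common to both versions, 68.2% of those 3816 and 67.5% of those without the mt-rich cells. Of the lower genes 1977 were common, 65.4% of those 3022 and 55.5% of those without the mt-rich cells. Of the 3022 genes 2-fold or more lower with all day 0 cells, 557 had a ratio above 0 against cells 5 and 6. Of the 3816 genes 2-fold or more higher, 185 had a ratio below 0. The 2 versions share 8 of their cells, so these shares describe the choice of cells and are no second measurement.

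Genes are called steadily higher or lower here if they were at least 2-fold apart in the same direction with all cells, without each cell in turn and against day 0 cells 5 and 6. This held for 1473 higher genes, 9.74% of those measured, and 891 lower genes (5.89%), and these 2 shares are the background for the gene groups that follow. Without subtracting the median gene they were 2524 and 347.

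**Figure D2:**
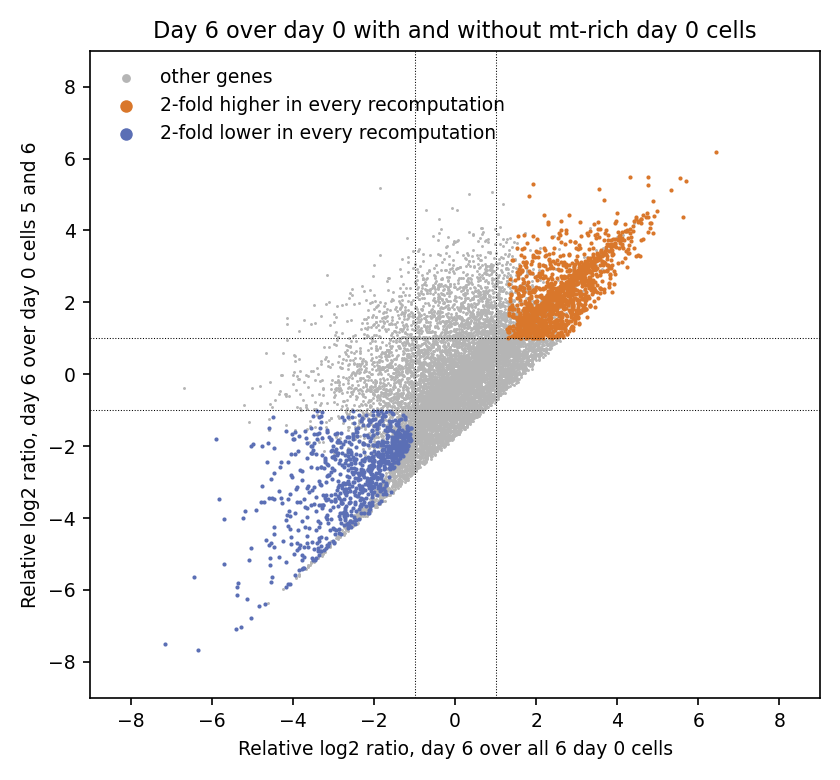
Relative log2 ratio of day 6 over all 6 day 0 cells (horizontal axis) and over day 0 cells 5 and 6 alone (vertical axis) for 14328 genes; dotted lines mark a 2-fold difference. The 1473 steadily higher genes lie upper right, the 891 steadily lower genes lower left, and the cloud at upper left holds genes whose ratio turned from lower to higher once the mt-rich cells were left out.

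Some genes separated the days in every cell. Every day 6 cell lay above every day 0 cell for 191 genes (1.26%), and every day 0 cell above every day 6 cell for 29 (0.192%), of which 20 carry predicted, clone, pseudogene, ribosomal protein or mt- names. Among named genes with at least 20 CPM, the 12 with the widest gap in each direction are described here.

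On the higher side these were Car4, Nabp2, Smarcb1, Plac8, Atp10d, Otx2, Ptk7, Crb3, Gipc1, Flywch2, Nudt16l1 and Triap1, all with no overlap between the days. Smarcb1, a core subunit of the BAF chromatin remodelling complex, had 0, 0.227 and 3.55 CPM at day 0 and 51.5, 74.3 and 104 CPM at day 6. Over summed cells this was 1.05 CPM (0.777 to 1.40) at day 0 and 77.4 CPM (75.3 to 79.5) at day 6, a relative log2 ratio of 4.76, and 5.26 against day 0 cells 5 and 6. The lowest day 6 cell thus stood more than 10 times above the highest day 0 cell, which was the mt-rich cell 1. Car4 had 0 reads at day 0 and 15.4, 51.9 and 109 CPM in day 6 cells, at least 839.7-fold higher if the day 0 sum is set at its floor of 3 reads. Otx2, a homeobox factor of the formative epiblast, had 1 read at day 0 and 8.88, 67.5 and 285 CPM at day 6, the widest range among the 12.

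Ptk7, a pseudokinase of planar cell polarity, had 0, 0.220 and 3.96 CPM at day 0 and 22.7, 46.0 and 84.2 CPM at day 6 (relative log2 ratio 4.38). Atp10d, a lipid flippase, had 0, 0.0568 and 0.483 CPM at day 0 and 12.8, 42.3 and 77.3 CPM at day 6 (relative log2 ratio 4.76). Gipc1, a PDZ adaptor of receptor trafficking, had 0, 0.0806 and 6.70 CPM at day 0 and 30.4, 82.6 and 132 CPM at day 6. The highest day 0 value of Gipc1 came from 1 cell of 6, and its relative log2 ratio was 4.57, or 5.597 without day 0 cell 6. Nabp2, a single-stranded DNA binding protein, and Nudt16l1, which binds the repair factor 53BP1, stood at relative log2 ratios of 4.82 and 3.72. Plac8 stood at 4.46, Flywch2 at 4.26 and Triap1, a small mitochondrial protein, at 3.40, or 4.00 without day 0 cell 6. Against day 0 cells 5 and 6 the 12 had relative log2 ratios from 2.35 to 6.17. A 2-fold ratio against these cells was a condition of their choice, so these values are no further support.

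With all 6 day 0 cells, the gaps on the lower side were narrower. Only Egr1, Ooep, Ndufs5 and Dpm3 had every day 0 cell above every day 6 cell by this measure. Egr1, an immediate early transcription factor, had 35.2, 279.9 and 431 CPM at day 0 and 0, 1.03 and 3.48 CPM at day 6. Over summed cells this was 272 CPM (268 to 277) at day 0 and 1.67 CPM (1.38 to 2.00) at day 6, a relative log2 ratio of -7.17. Its lowest day 0 cell (cell 4) lay about 10 times above the highest day 6 cell. Ooep, a protein of the subcortical maternal complex of the oocyte, had 84.1, 157 and 279.9 CPM at day 0 and 14.2, 43.9 and 49.1 CPM at day 6, with a relative log2 ratio of -2.65. Ndufs5, an accessory subunit of respiratory complex I, had 26.9, 62.0 and 90.0 CPM at day 0 and 4.58, 18.1 and 21.5 CPM at day 6 (relative log2 ratio -2.53). Dpm3, a subunit of dolichol phosphate mannose synthase, had 15.8, 19.5 and 92.8 CPM at day 0 and 0.516, 6.39 and 14.6 CPM at day 6.

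Dpm3 depended on 1 cell for its size, with a relative log2 ratio of -2.64, or -1.82 without day 0 cell 1. The other 8 lower genes were Sap18b, Tecpr2, Uqcrb, Selenos, Olfr77, Cox17, Mrps36 and Cox7c. They stood at relative log2 ratios from -2.60 (Selenos, a selenoprotein of the endoplasmic reticulum membrane) to -1.20 (Cox7c, a subunit of cytochrome oxidase), with day ranges that overlapped. Sap18b is a near-identical copy of Sap18, so its reads may be shared between them. Uqcrb, of respiratory complex III, had 213, 361 and 544 CPM at day 0 and 202, 215 and 240.0 CPM at day 6, so its day 6 cells differed little from each other.

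**Figure D3:**
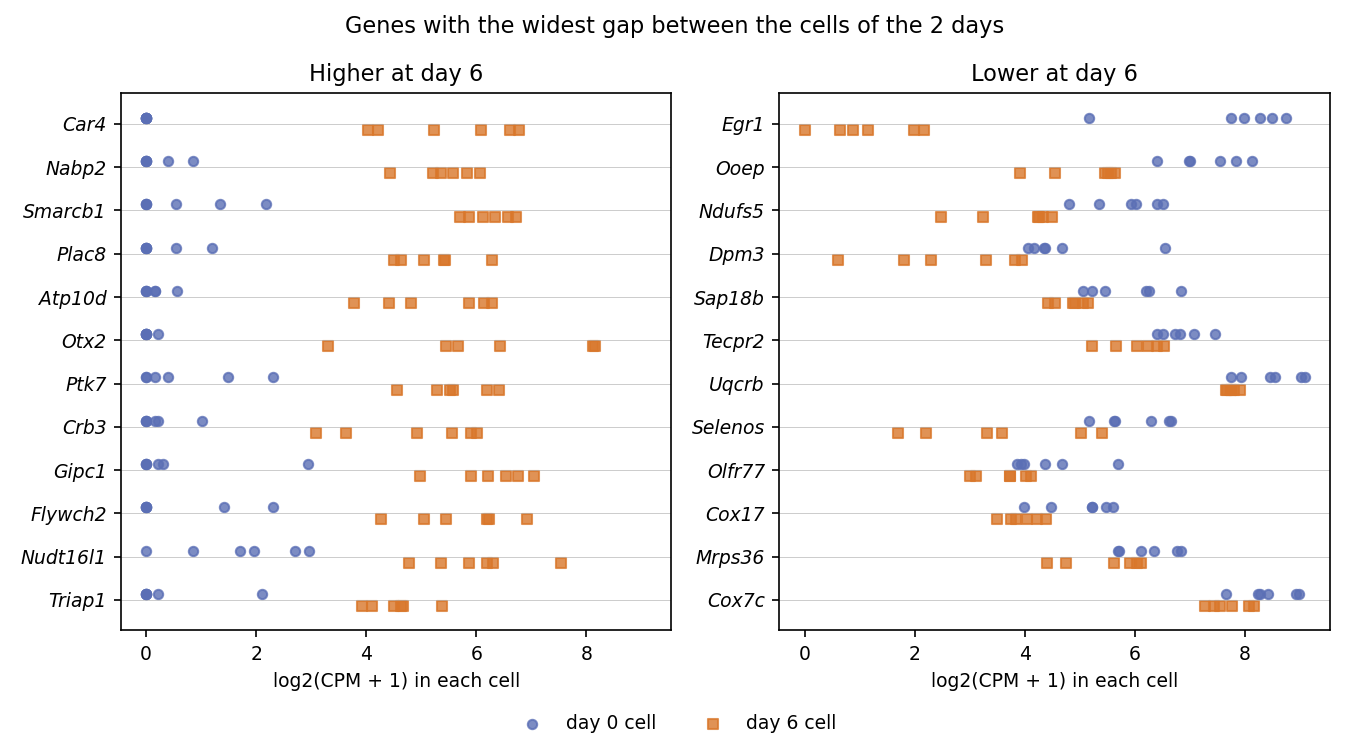
Level of each gene, as log2(CPM + 1), in each day 0 cell (circles) and day 6 cell (squares) for the 12 genes in each direction with the widest gap between the days. The 12 genes higher at day 6 reach at most 6.75 CPM in any day 0 cell, whereas the lower genes other than Egr1 were read in every cell of both days.

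Genes of epithelial junctions and polarity were, with the formative genes described further on, the list with the largest share of higher members at day 6. Of 18 listed genes, all measured, 9 were steadily higher, against 9.74% of all measured genes, and 1 was steadily lower. The median relative log2 ratio of the list was 1.63, and 1.85 against day 0 cells 5 and 6, where the median of all genes is 0. The steadily higher members were Epcam, Cldn3, Cldn6, Cldn7, Rab25, Esrp1, Crb3, Pkp2 and Ap1m2.

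The promoters of 4 of them are shown because they hold the 6-base sequence CACCTG or, read on the other strand, CAGGTG, at several places. This is the E-box that repressors of the Zeb and Snail families are known to bind. Sequences are from RefSeq on build GRCm38.p6, 250 bases before to 50 bases after the annotated start, 5′ to 3′ on the strand of the gene, with each match in capitals. The window of Ap1m2 is chr9:21312284-21312583 (minus strand), that of Crb3 is chr17:57061951-57062250 (plus strand), the first of its 2, that of Rab25 is chr3:88548230-88548529 (minus strand) and that of Epcam is chr17:87635729-87636028 (plus strand).
Ap1m2: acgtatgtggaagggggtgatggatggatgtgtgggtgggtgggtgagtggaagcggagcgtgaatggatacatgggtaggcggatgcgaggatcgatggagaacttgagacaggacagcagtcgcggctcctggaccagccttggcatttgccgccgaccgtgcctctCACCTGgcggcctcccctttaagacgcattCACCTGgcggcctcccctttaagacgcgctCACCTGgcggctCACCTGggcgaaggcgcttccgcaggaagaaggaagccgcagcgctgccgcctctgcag
Crb3: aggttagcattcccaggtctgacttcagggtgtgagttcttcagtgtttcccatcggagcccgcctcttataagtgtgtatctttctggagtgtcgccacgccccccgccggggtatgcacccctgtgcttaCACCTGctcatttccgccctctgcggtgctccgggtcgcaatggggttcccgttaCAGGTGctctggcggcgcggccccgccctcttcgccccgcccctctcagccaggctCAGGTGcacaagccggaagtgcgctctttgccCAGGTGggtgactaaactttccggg
Rab25: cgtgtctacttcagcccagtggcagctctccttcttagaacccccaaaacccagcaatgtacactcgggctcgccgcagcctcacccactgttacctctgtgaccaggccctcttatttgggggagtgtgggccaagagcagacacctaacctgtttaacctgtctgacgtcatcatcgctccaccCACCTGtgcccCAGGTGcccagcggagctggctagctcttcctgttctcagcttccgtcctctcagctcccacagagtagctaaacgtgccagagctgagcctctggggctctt
Epcam: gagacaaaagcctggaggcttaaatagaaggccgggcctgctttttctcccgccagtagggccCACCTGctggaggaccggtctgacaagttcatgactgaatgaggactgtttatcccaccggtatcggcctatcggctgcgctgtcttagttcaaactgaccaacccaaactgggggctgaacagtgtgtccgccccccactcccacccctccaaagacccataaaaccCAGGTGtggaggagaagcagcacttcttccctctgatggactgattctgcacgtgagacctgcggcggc
The windows of Ap1m2 and Crb3 each hold 4 matches, and those of Rab25 and Epcam 2 each.

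Of the 18 epithelial genes 14 had a window, and 13 of these held the sequence at least once, 9 of them 2 or more times. Of the steadily higher members 7 had a window, and all 7 held it. Members that were not steady, among them Cldn4 and F11r, held it as well, so it did not mark the steadily higher members alone. Of all 27025 genes with a window, 22.6% held it and 3.32% held it 2 or more times. Of the mesenchymal list, 7 of 14 genes had a window and 2 of these held it. Other sequences were searched in the same windows, on both strands. GGGCGG or CCGCCC was found in 12 of the 14 epithelial genes and 38.2% of all genes, and CCGGTT or AACCGG in 2 of 14 and 7.74%. AACCTGTT or AACAGGTT was found in 1 of 14 and 1.05%, and AACCGGTT in 0 of 14 and 0.174%. CCGGTT and AACCGG lie within AACCGGTT, and matches of different sequences were counted whether or not they overlapped. The E-box was picked for display after these matches were seen, so its high share is a description, and a match is not evidence that a factor binds there. Zeb1, one of those repressors, was among the steadily lower genes, with a relative log2 ratio of -2.60. It had 0, 1.71 and 24.0 CPM at day 0 and 0, 0.350 and 2.99 CPM at day 6. Its day 0 level rested mostly on cells 4 and 6, with 24.0 and 14.9 CPM, where the other day 0 cells had 0 to 2.13 CPM. Zeb1 was named after its values were seen, and other Zeb and Snail genes are not described here. Its part in the higher epithelial genes was not tested.

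Epcam, a homophilic adhesion molecule of simple epithelia, had 1.36, 24.6 and 76.2 CPM at day 0 and 78.1, 109.8 and 325 CPM at day 6. The summed levels were 29.9 CPM (28.4 to 31.6) at day 0 and 153 CPM (150.3 to 156) at day 6. All 6 day 6 cells lay above all day 0 cells. Among day 0 cells the 4 mt-rich ones carried more, 20.02 to 76.2 CPM, than cells 5 and 6 with 3.06 and 1.36 CPM. Its relative log2 ratio over all cells was 1.83, or 2.51 without day 0 cell 1. Against cells 5 and 6 it was 4.96.

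Crb3, the small transmembrane protein of the apical Crumbs complex, had 0, 0.0592 and 1.02 CPM at day 0 and 7.51, 37.7 and 63.6 CPM at day 6. Its days did not overlap, and its relative log2 ratio was 4.35. Ap1m2, the clathrin adaptor subunit of epithelial basolateral sorting, had 2 reads at day 0 and 0, 23.7 and 115 CPM at day 6. The ratio of plain summed CPM was 845 (95% interval 234 to 6984), and day 6 cell 1 had none. Its relative log2 ratio was 4.70, or 3.92 without day 6 cell 2.

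Cldn6, an embryonic claudin of tight junctions, had 0, 1.11 and 15.0 CPM at day 0 and 20.8, 60.5 and 129.7 CPM at day 6 and a relative log2 ratio of 3.38, or 4.08 without day 0 cell 5. All its day 6 cells lay above the highest day 0 cell, cell 5. Pkp2, a desmosomal plakophilin, had 0, 0 and 4.89 CPM at day 0 and 0.112, 18.2 and 35.3 CPM at day 6, with day 6 cell 3 as low as most day 0 cells. Esrp1, a splicing regulator of epithelial cells, had 0, 0.161 and 2.91 CPM at day 0 and 0, 11.5 and 34.5 CPM at day 6. The members that were not steady included Cldn4, with 0, 5.67 and 16.2 CPM at day 0 and 23.0, 26.3 and 41.9 CPM at day 6, and the junction protein F11r, with 0, 39.6 and 278 CPM at day 0 and 40.7, 164 and 495 CPM at day 6.

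Cdh1, the cadherin of adherens junctions, was the 1 steadily lower member of the list. It had 1.30, 26.5 and 346 CPM at day 0 and 1.35, 19.9 and 53.4 CPM at day 6, and its relative log2 ratio was -2.46, or -1.30 without day 0 cell 1. Its 2 highest cells were day 0 cells 1 and 5, and the other 4 day 0 cells overlapped with day 6.

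Of 11 measured genes of the mesenchymal list, 5 were steadily lower (background 5.89%) and none was steadily higher, and the median relative log2 ratio was -1.38 (-1.84 against cells 5 and 6). Vim, the intermediate filament of mesenchymal cells, had 13.7, 41.7 and 103 CPM at day 0 and 0, 6.72 and 40.1 CPM at day 6, with 1 day 6 cell, cell 3, in the range of day 0. The summed levels were 47.3 CPM (45.3 to 49.3) at day 0 and 9.97 CPM (9.23 to 10.8) at day 6, a relative log2 ratio of -2.63, or -3.41 without day 6 cell 3. Sparc, a matrix glycoprotein, had 148, 888 and 1409 CPM at day 0 and 3.60, 241 and 372 CPM at day 6 (relative log2 ratio -2.42), and the days overlapped. Itga5, the fibronectin receptor subunit, had 0.917, 18.3 and 94.3 CPM at day 0 and 0, 10.4 and 34.1 CPM at day 6 (relative log2 ratio -1.83, or -1.06 without day 0 cell 2). Mmp2, a matrix protease, went the other way with all cells but not without the mt-rich ones, with relative log2 ratios of 1.45 and 0.05.

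Fibroblasts express several of these genes, and several fibroblast markers were lower at day 6 in the summed reads. Of 19 listed feeder markers 11 were measured, of which 4 were steadily lower and none steadily higher, with a median relative log2 ratio of -2.08. In single cells, the mean log2(CPM + 1) of these 11 had a median of 0.680 at day 0 and 0.610 at day 6. The highest day 0 means were 3.37, 1.51 and 1.07 in cells 6, 3 and 2, so the lower sums rest on part of the day 0 cells. Lum, Dcn, Lox, Postn, Pdgfrb, Col6a1 and S100a4 had 0 reads over all day 6 cells, and Twist1 and Prrx1 had 0 over all day 0 cells. Day 0 cell 6, with the highest sum of these markers, carried 81.0 CPM of Col1a2 where the other day 0 cells had 0 to 2.13 CPM. Without it, Col1a2 had a relative log2 ratio of -0.997 in place of -4.26. Cell 6 also had the most Vim, 103 CPM, but the 5 other day 0 cells held 13.7 to 46.7 CPM. The part of fibroblast RNA in the lower mesenchymal genes was not tested.

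Of 14 measured formative genes 7 were steadily higher and none steadily lower, with a median relative log2 ratio of 2.01 (2.47 against cells 5 and 6). Of 15 measured naive genes 3 were steadily lower and none steadily higher, with a median of -0.80 (-1.004). Of 13 measured core pluripotency genes 2 were steadily higher and none lower, with a median of 0.28 (0.69).

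Besides Otx2 the steadily higher formative genes were Fgf5, Pou3f1, Dnmt3a, Dnmt3b, Tead2 and Grhl2. Tead2, a DNA-binding partner of YAP, had 0, 0.0806 and 3.79 CPM at day 0 and 0.562, 21.1 and 62.3 CPM at day 6 (relative log2 ratio 3.29). Grhl2, a transcription factor that activates epithelial genes, had 0, 0.0862 and 0.682 CPM at day 0 and 0.172, 13.7 and 26.6 CPM at day 6 (relative log2 ratio 3.19), and 4 day 6 cells exceeded every day 0 cell. Pou3f1, a POU factor of the formative epiblast, had 0 reads at day 0 and 0, 2.89 and 13.8 CPM at day 6, at least 68.4-fold higher in the summed reads. These cells were not uniform: Fgf5, the ligand used as a formative marker, was at 0 in day 6 cells 1 and 3 and reached 73.3 CPM in cell 5. Grhl2 and Fgf5 are named after their values were seen.

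Day 6 cell 3 lay in the range of the day 0 cells for some genes and not for others, both chosen here after their values were seen. It had 58.6 CPM of Klf2, a naive Krüppel-like factor, where the other day 6 cells had 0 to 9.63 CPM and day 0 cells 0.459, 97.5 and 251 CPM. Without it the relative log2 ratio of Klf2 was -5.17 in place of -3.66. The same cell had the fewest genes of its day, the lowest Pou5f1 (189 CPM), Tead2 and Krt18, and the highest Vim of its day, 40.1 CPM. It lay with the other day 6 cells for Epcam (227 CPM) and Egr1 (0.562 CPM), and its Sparc (3.60 CPM) was the lowest of all 12 cells.

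Pou5f1, the POU factor of pluripotency, had 56.4, 108 and 274 CPM at day 0 and 189, 631 and 779 CPM at day 6, and summed levels of 137 CPM (133 to 140.0) at day 0 and 576 CPM (571 to 582) at day 6. Its relative log2 ratio was 1.58. Only the lowest day 6 cell fell in the day 0 range. Lin28a, an RNA-binding protein that blocks let-7 maturation, rested on 1 cell, with 0, 0 and 1.03 CPM at day 0 and 0, 1.99 and 126 CPM at day 6 and a relative log2 ratio of 3.84, or 1.31 without day 6 cell 4. Tbx3, a naive T-box factor, had 0, 0.352 and 16.7 CPM at day 0 and 0, 0 and 3.25 CPM at day 6 (relative log2 ratio -2.13), with reads in 4 and 2 cells.

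Most signalling lists held steady members in both directions, and most of these counts are small. Of 11 measured genes of the LIF and STAT3 list 1 was steadily higher, about the background share, and 2 were steadily lower. Il6st, the shared receptor chain gp130, had 0, 9.06 and 61.5 CPM at day 0 and 0, 0.137 and 12.9 CPM at day 6 (relative log2 ratio -2.18, or -1.57 without day 0 cell 5 and -3.12 without day 6 cell 1). Bcl3, an atypical IκB protein and STAT3 target, had 0, 19.6 and 37.5 CPM at day 0 and 0, 2.27 and 17.9 CPM at day 6 (relative log2 ratio -2.37, or -3.30 without day 6 cell 2). Jak1, the kinase bound to gp130, was higher, with 0, 1.29 and 11.7 CPM at day 0 and 5.23, 11.1 and 44.5 CPM at day 6 and a relative log2 ratio of 2.10. Ranges of all 3 overlapped between the days.

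Of 13 measured Nodal and activin genes 3 were steadily higher and 2 steadily lower. Lefty1, a secreted Nodal antagonist and Nodal target, had 0, 0 and 23.2 CPM at day 0 and 9.27, 47.0 and 82.7 CPM at day 6. All its day 0 reads were in cell 6, so that its relative log2 ratio was 2.67, or 5.03 without day 0 cell 6, and 1.06 against cells 5 and 6. Smad2, a receptor-activated SMAD, had 0, 15.7 and 61.5 CPM at day 0 and 0, 2.36 and 44.7 CPM at day 6 (relative log2 ratio -1.55, or -2.84 without day 6 cell 4). Of 16 measured FGF and ERK genes 3 were steadily higher and none lower, among them Map2k2, the kinase MEK2, with 0.115, 1.35 and 23.3 CPM at day 0 and 8.66, 38.5 and 56.0 CPM at day 6 and a relative log2 ratio of 2.46, or 3.43 without day 0 cell 4.

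Id1, an inhibitor of bHLH factors induced by BMP, had 0, 1.16 and 24.0 CPM at day 0 and 26.6, 53.04 and 412 CPM at day 6 and a relative log2 ratio of 3.56, or 4.68 without day 0 cell 2 and 2.61 without day 6 cell 5. Every day 6 cell lay above every day 0 cell, and cell 5 was far above the other day 6 cells. In the BMP list 1 of 11 measured genes was steadily higher and 1 lower, and in the Notch list 1 of 11 and 1 of 11, all of them about as frequent as among all measured genes. Of the Notch list, Rbpj, its DNA-binding effector, had 5.39, 136 and 666 CPM at day 0 and 2.52, 64.1 and 85.6 CPM at day 6 (relative log2 ratio -2.28). No gene of the WNT list was steady in either direction, of 16 measured.

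Lists of committed lineages held few steady genes in number, with shares that in some lie above the background. Of 10 measured trophoblast genes 2 were steadily higher, Ascl2 and Krt18, the simple epithelial keratin, which had 0, 0.909 and 53.6 CPM at day 0 and 4.83, 113 and 159.7 CPM at day 6 (relative log2 ratio 3.07, or 5.03 without day 0 cell 4). Of 16 measured genes of extraembryonic endoderm 3 were steadily lower and none higher, while the list median was 0.16, and 0.47 against cells 5 and 6, where 5 members were 2-fold higher and 5 lower. Lama1, the laminin chain of the earliest basement membranes, had 0.397, 26.0 and 71.0 CPM at day 0 and 0.0986, 1.91 and 9.26 CPM at day 6 (relative log2 ratio -3.36). Gata6, a factor of primitive endoderm, had 1 read at day 6 and 0, 0.172 and 55.6 CPM in day 0 cells, and its relative log2 ratio was -4.02, or -1.10 without day 0 cell 3. Of 3 measured genes of mesoderm and cardiac muscle 2 were steadily lower, one of them Myl4, an atrial myosin light chain, which had 12.8, 39.3 and 142 CPM at day 0 and 0.899, 9.76 and 22.4 CPM at day 6 and a relative log2 ratio of -2.70. Of 11 and 11 listed genes of primitive streak and of neural ectoderm 4 and 4 were measured, and none was steady.

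Some differences came from 1 day 0 cell. Genes of the two-cell-like state, a rare and passing state of mESC cultures marked by Zscan4 genes, had a median relative log2 ratio of -2.08 over 11 measured, yet none was steady. Day 0 cell 3 held 262 CPM of 7 markers of this state, and the other day 0 cells 0.114 to 42.0 CPM, against 0 to 92.7 CPM in day 6 cells. Zscan4d had 0, 0.315 and 165 CPM at day 0 and 0, 0.764 and 14.2 CPM at day 6. Its relative log2 ratio of -2.91 became 0.03 without day 0 cell 3 and 1.89 against cells 5 and 6. Members of the Zscan4 cluster are near-identical copies, so reads may be split among them. The list median was 0.31 without day 0 cell 3 and 0.23 against cells 5 and 6.

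Of 18 measured glycolysis genes 5 were steadily higher, 1 was steadily lower and the other 12 were not steady, with a median relative log2 ratio of 0.77 (0.36 against cells 5 and 6). Ldha, the muscle-type lactate dehydrogenase chain, had 309, 753 and 1000 CPM at day 0 and 941, 3895 and 5105 CPM at day 6 (relative log2 ratio 1.85). Ldhb, the heart-type chain, had 45.7, 108 and 425 CPM at day 0 and 468, 797 and 2428 CPM at day 6 (relative log2 ratio 1.69). Every day 6 cell exceeded every day 0 cell for Ldhb, and all but the lowest did for Ldha. Eno1, enolase, had 448, 675 and 1133 CPM at day 0 and 1722, 3991 and 6152 CPM at day 6 and a relative log2 ratio of 1.96, with no overlap. Pgam1, phosphoglycerate mutase, stood at 1.73. Hk2, the hexokinase at the entry of the pathway, was the steadily lower member, with 2.87, 84.0 and 205 CPM at day 0 and 13.2, 41.3 and 89.2 CPM at day 6 and a relative log2 ratio of -1.40. Several glycolytic genes have processed pseudogenes close in sequence, and how the authors counted reads that fit both is not given.

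Of 18 measured TCA cycle and pyruvate dehydrogenase genes 4 were steadily higher and 1 steadily lower, around a median of -0.01. Pdha1, the E1 subunit of pyruvate dehydrogenase, had 0, 0.360 and 22.0 CPM at day 0 and 2.59, 46.5 and 117 CPM at day 6 (relative log2 ratio 2.54, or 4.00 without day 0 cell 3). Suclg1 and Sucla2, subunits of succinyl-CoA ligase, were also higher. Suclg1 stood at 1.77, or 2.55 without day 0 cell 3. Sucla2 stood at 2.27, or 2.91 without day 0 cell 4.

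Of 32 measured nuclear genes of the respiratory chain none was steadily higher and 5 were steadily lower, Ndufa2, Uqcrb, Uqcrq, Cox7c and Atp5e. The median was -0.50, and -0.97 against cells 5 and 6. Ndufa2, a complex I subunit, had 141, 392 and 781 CPM at day 0 and 122, 282 and 321 CPM at day 6 (relative log2 ratio -1.33), and Uqcrq, of complex III, 61.5, 478 and 772 CPM at day 0 and 105, 209.7 and 491 CPM at day 6 (relative log2 ratio -1.46). Both overlapped between the days, and day 0 cells 5 and 6 were among the 3 highest cells for Uqcrq. Since the median gene had a log2 ratio of 0.49 before centring, a relative log2 ratio of -0.50 is no difference in plain CPM, where the list median was -0.01. For the 5 steadily lower genes the ratio of plain summed CPM ran from 0.508 (Uqcrq) to 0.612 (Cox7c), so none was 2-fold lower without centring.

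The 13 protein-coding genes of the mitochondrial genome had a median of -1.16 with all cells and of -0.18 without the mt-rich day 0 cells, and 3 of them were steadily lower. The one with the most reads, mt-Co1 of cytochrome oxidase, had 6944, 25090.0 and 38020.0 CPM at day 0 and 6739, 15470.0 and 21240.0 CPM at day 6 and a relative log2 ratio of -1.14, which was 0.18 against cells 5 and 6. The one in the middle, mt-Nd6, had 112, 534 and 1332 CPM at day 0 and 92.6, 277 and 402 CPM at day 6, with -1.60 and -1.01 in the 2 versions. The one with the fewest, mt-Atp8, had 0.806, 2.27 and 4.83 CPM at day 0 and 0.493, 0.995 and 3.26 CPM at day 6. Direction thus depended on the mt-rich cells for mt-Co1 but not for mt-Nd6. Outside these 13, the ribosomal RNA gene mt-Rnr2 had more reads than mt-Co1 on both days. Its relative log2 ratio was -2.20, or -0.32 against cells 5 and 6.

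Of 16 measured genes of serine and one-carbon metabolism 5 were steadily higher, none was lower and the other 11 were not steady, with a median of 1.01 (0.80 against cells 5 and 6). Gldc and Gcsh, both of the glycine cleavage system, had 0, 0.748 and 27.1 CPM at day 0 and 8.68, 44.7 and 154 CPM at day 6 and 0, 5.39 and 20.6 CPM at day 0 and 20.7, 55.2 and 232 CPM at day 6. The relative log2 ratio of Gcsh was 2.81 and that of Gldc 2.39, or 3.37 without day 0 cell 3. Tdh, threonine dehydrogenase, which feeds the one-carbon pool of mouse stem cells, had 0.115, 13.8 and 60.9 CPM at day 0 and 21.0, 45.6 and 374 CPM at day 6 and a relative log2 ratio of 1.94, or 1.13 without day 6 cell 4. Ahcy, which clears S-adenosylhomocysteine after methylation, stood at 2.40, or 3.40 without day 0 cell 3.

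Nucleotide synthesis had 5 of 20 measured genes steadily higher, none lower and a median of 0.55 (0.88). Ctps, which makes CTP, had 0, 1.58 and 3.71 CPM at day 0 and 1.24, 17.1 and 52.5 CPM at day 6 (relative log2 ratio 2.66). Prps2, which makes the starting sugar of purine synthesis, stood at 2.03, and Gart, a later enzyme of that pathway, at 1.95, or 3.12 without day 0 cell 2. Fatty acid synthesis was split, with 2 of 12 higher and 1 lower: Fasn, the synthase, had 0, 3.75 and 19.0 CPM at day 0 and 17.3, 25.03 and 261 CPM at day 6 (relative log2 ratio 2.99, or 2.29 without day 6 cell 4) and Scd1, the desaturase, 0, 3.71 and 34.1 CPM at day 0 and 0, 0.122 and 4.44 CPM at day 6 (relative log2 ratio -2.86, or -1.59 without day 0 cell 6).

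Of 21 measured DNA replication genes 4 were steadily higher and none lower, with a median of 0.93 (0.52 against cells 5 and 6). Orc1, of the origin recognition complex, had 0, 0 and 0.517 CPM at day 0 and 0.112, 8.43 and 63.0 CPM at day 6 (relative log2 ratio 3.92, or 2.86 without day 6 cell 1). Pcna, the sliding clamp, had 0, 17.6 and 40.4 CPM at day 0 and 8.32, 98.7 and 137 CPM at day 6, and its relative log2 ratio of 1.70 was 0.52 against cells 5 and 6, so it was not steady. Mitotic genes were split, 3 of 20 higher and 2 lower, with a median of 0.19. Ccna2, cyclin A2, had 0, 9.10 and 16.9 CPM at day 0 and 4.64, 36.4 and 508 CPM at day 6 and a relative log2 ratio of 3.37, or 2.36 without day 6 cell 4. Kif23, a kinesin of the midbody, was lower, with 11.9, 56.5 and 128 CPM at day 0 and 4.63, 17.8 and 43.2 CPM at day 6 and a relative log2 ratio of -2.16. With 6 cells a day, the position of single cells in the cell cycle can weigh on such genes, and its part was not tested.

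RNA splicing factors had 5 of 28 measured genes steadily higher, none lower and a median of 0.77 (0.55). Srsf7, an SR protein, had 0, 21.3 and 116 CPM at day 0 and 101, 231 and 531 CPM at day 6 (relative log2 ratio 2.38, or 3.32 without day 0 cell 3), with 5 of 6 day 6 cells above every day 0 cell. Hnrnpa1, an hnRNP protein with many pseudogene copies, had 53.1, 93.6 and 210.4 CPM at day 0 and 156, 403 and 1383 CPM at day 6 (relative log2 ratio 1.97). Proteasome subunits had 3 of 31 steadily higher and none lower, about the background share, among them Psmd13, with 0.265, 3.21 and 43.8 CPM at day 0 and 55.3, 109.6 and 144 CPM at day 6 and a relative log2 ratio of 2.56. Of translation initiation factors 1 of 26 was steadily higher, Eif2s3x, the X-linked gamma subunit of eIF2, with 0, 2.79 and 8.79 CPM at day 0 and 4.16, 69.0 and 102 CPM at day 6 and a relative log2 ratio of 3.31.

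Ribosomal protein genes stood near the median gene with all cells and below it without the mt-rich ones. Medians were -0.09 and -0.70 for 42 measured genes of the large subunit and -0.29 and -0.81 for 32 of the small subunit. Without subtracting the median gene the medians with all cells were above 0, at 0.40 and 0.20. Only Rpl24 was steady, with 7.15, 38.6 and 122 CPM at day 0 and 7.31, 11.7 and 33.1 CPM at day 6 and a relative log2 ratio of -2.11, or -1.47 without day 0 cell 1. Host genes of small nucleolar RNAs had negative list medians in both versions, -1.41 and -1.31, and 5 of 14 were steadily lower and 1 steadily higher. Gas5, a noncoding host gene with a 5′ terminal oligopyrimidine tract, had 82.9, 223 and 427 CPM at day 0 and 64.9, 91.7 and 140.1 CPM at day 6 (relative log2 ratio -1.76). Zfas1 stood at -1.99 and Snhg5 at -2.46. Dancr went the other way, with 0, 0 and 7.25 CPM at day 0 and 0, 16.0 and 104 CPM at day 6.

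Chromatin genes included members in both directions. In the Polycomb list 4 of 17 measured were steadily higher and 1 lower. Phc1, a PRC1 subunit, had 0, 15.7 and 87.4 CPM at day 0 and 41.7, 133 and 435 CPM at day 6 (relative log2 ratio 2.07). Cbx7, the chromodomain subunit of PRC1 in stem cells, had 0, 4.82 and 30.5 CPM at day 0 and 18.6, 42.0 and 65.8 CPM at day 6 (relative log2 ratio 1.70). Suz12, a core subunit of PRC2, was lower, with 0.115, 49.6 and 158 CPM at day 0 and 1.68, 10.8 and 79.7 CPM at day 6 and a relative log2 ratio of -1.65, or -3.02 without day 6 cell 1. In the DNA methylation list 3 of 16 were steadily higher, the de novo methyltransferases Dnmt3a and Dnmt3b among them, and 1 was lower. That one was Tet2, a dioxygenase of 5-methylcytosine, with 0.115, 81.8 and 123 CPM at day 0 and 0, 2.28 and 29.9 CPM at day 6 and a relative log2 ratio of -3.21, or -4.87 without day 6 cell 1. The BAF list had 2 of 16 higher, Smarcb1 and Smarce1, with 1 lower.

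Imprinted genes had 4 of 14 measured steadily higher and 1 lower, among them Mest, an alpha/beta hydrolase, with 0, 7.33 and 38.0 CPM at day 0 and 10.1, 56.7 and 101 CPM at day 6 and a relative log2 ratio of 1.74, or 2.51 without day 0 cell 3. Among p53 targets 2 of 16 were steadily higher, Aen, an apoptosis-enhancing nuclease, with 0, 0.172 and 1.93 CPM at day 0 and 0, 39.6 and 108 CPM at day 6 and a relative log2 ratio of 4.64, and Bbc3. Immediate early genes had 2 of 18 steadily lower, Egr1 and Fos, with a list median of -1.50 (-1.94). Fos had 2.52, 23.4 and 42.7 CPM at day 0 and 0.0935, 0.403 and 49.4 CPM at day 6, and its relative log2 ratio was -1.59, or -3.49 without day 6 cell 2. Actin and YAP target genes had 2 of 17 steadily lower and none higher.

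In apoptosis regulators 3 of 18 were steadily higher and 1 lower. Steady in both directions were 1 of 14 circadian genes each way and 1 of 11 genes of metal transport each way. The lists of oxidative stress (2 of 14), heat shock chaperones (1 of 14) and integrated stress response (1 of 14) had steadily higher members only. So had those of cholesterol (1 of 18), lysosome and autophagy (1 of 20) and nuclear-retained RNAs (1 of 8). Most of these counts are 1 gene, where 9.74% of all measured genes were steadily higher and 5.89% steadily lower, so the counts alone show no direction of a list. The oxidative stress list had a median relative log2 ratio of 1.24 (0.70 against cells 5 and 6). With all cells, 9 of its 14 measured members were 2-fold or more higher and 0 lower. The median of the nuclear-retained RNAs was -0.77 (-0.24). None was steady among 13 measured germline, 16 ER folding, 13 hypoxia and 12 iron genes.

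**Figure D4:**
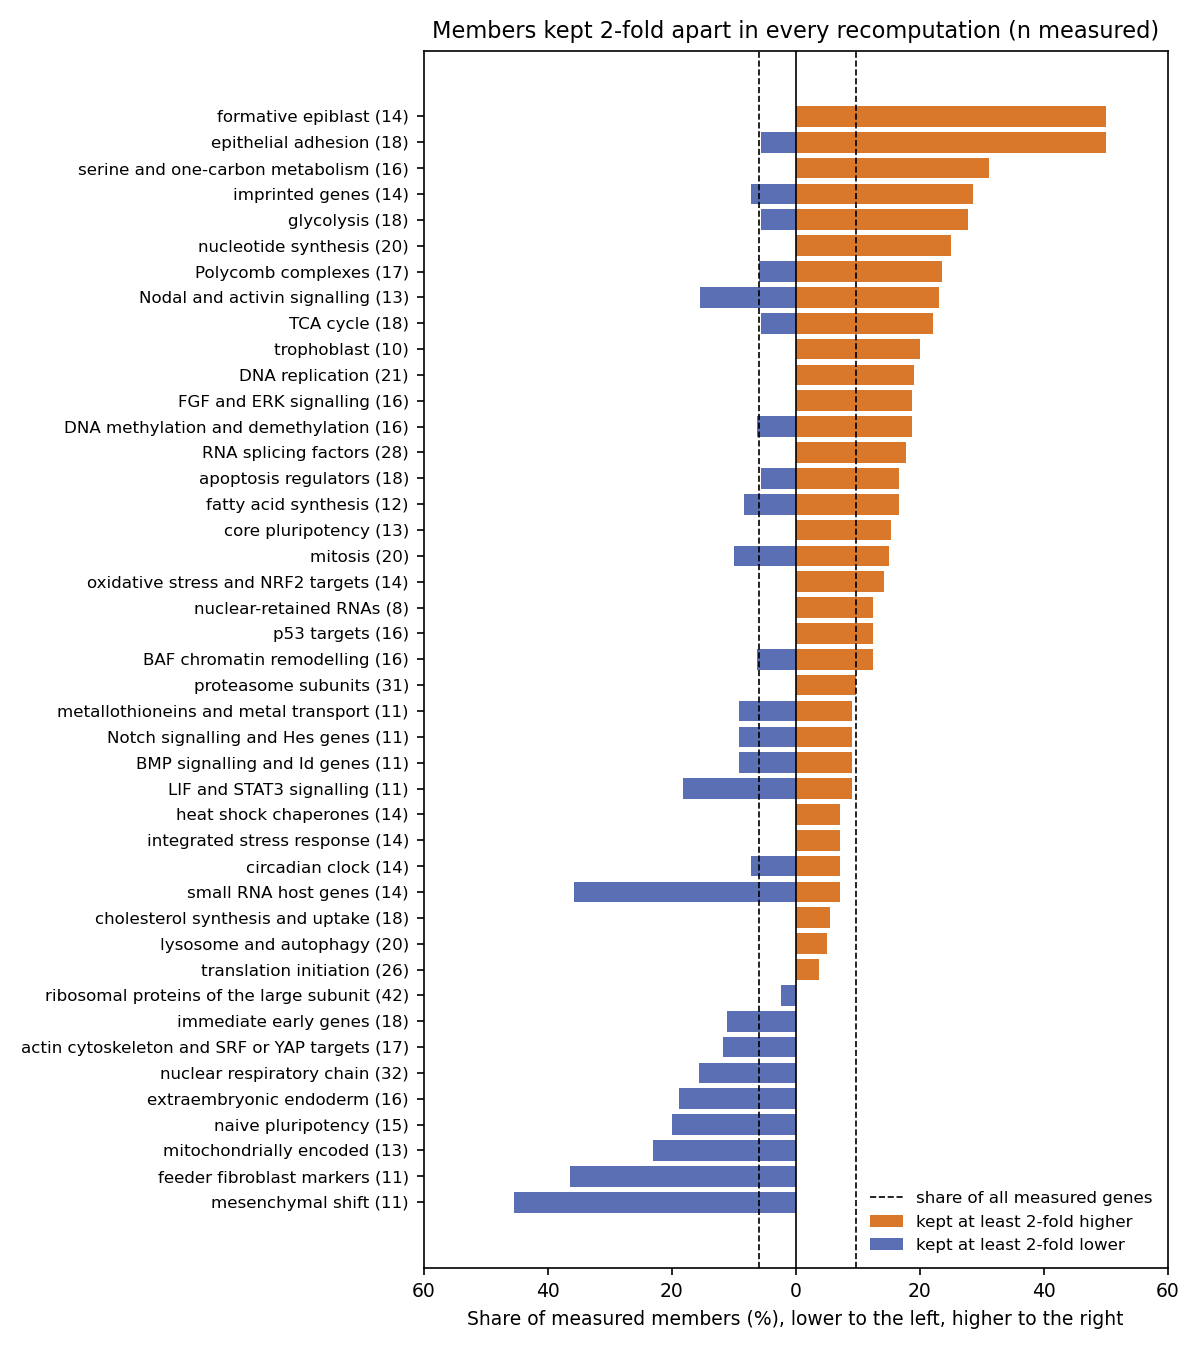
Share of each list's measured members (number in parentheses) that were steadily higher (bars to the right) or steadily lower (bars to the left) at day 6, for lists with at least 5 measured members and at least 1 steady one. Dashed lines mark the shares over all measured genes, 9.74% higher and 5.89% lower. The formative and epithelial lists reach furthest to the right, and the mesenchymal, feeder and small RNA host lists furthest to the left.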

How the data were processed

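RNA of 6 single mESCs at day 0 and 6 at day 6 was used, and the DNA and K562 samples were not analysed here. The authors deposited, for every cell, whole-number counts of reads by gene, not normalized. The submitters' processing notes name mm10, Trim Galore 0.6.7, Bismark and Bowtie2 2.2.9. The sources used here give no aligner, counter, annotation or strand setting for the RNA. The 5 closing lines of each library, which name no gene, took 25.3% to 37.6% of all its reads at day 0 and 21.3% to 31.8% at day 6, and were left out. Gene names were found for 55141 of 55401 gene IDs, for 54349 with the ID's version and for the rest after dropping it. No cell was removed and no doublet caller was run.

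Counts were summed over the cells of a day and scaled to CPM, with ratios as given above. Cells are not replicates, so no test was made. Exact Poisson intervals (95%) cover counting error only, and the floor of 3 reads was 0.0659 CPM of the day 0 sum and 0.0439 CPM of the day 6 sum. The number of genes per cell at a common depth was calculated, without drawing, for 1000000 gene reads a cell. Counts of genes read in all cells or only on a single day came from a random draw of 1000000 gene reads of each cell. The ratios were checked on simulated counts with set changes. The comparison itself, the 10% limit on mitochondrially encoded reads and the 53 gene lists (950 symbols, of which 3 on several IDs were left out) were chosen with earlier results of these data known.

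Genes were named by 4 rules. The first took the 12 per direction with the widest gap between the cells of the days, provided that the higher day had 20 CPM or more and reads in all 6 cells and that the ratio was steady (predicted, clone, pseudogene, ribosomal protein and mt- names left out). The second took up to 4 members per list, those with the largest ratios that stayed 2-fold without any 1 cell at 20 CPM or more, otherwise those with the most reads. The third took the 5 genes with the most reads on each day, and the last the first, middle and last of the 13 protein-coding mt- genes by level. Ascl2, Bbc3, Cdh1, Cldn3, Cldn4, Cldn7, Epcam, Esrp1, F11r, Fgf5, Gata6, Gm13274, Grhl2, Hk2, Il6st, Jak1, Pkp2, Pou3f1, Scd1, Sox2, Tbx3, Zeb1 and the feeder markers at 0 reads lie outside these rules and were named after their values were seen. Alternatives were TMM and DESeq2 size factors, the mean or median CPM over cells, totals lacking CT010467.1 or the mitochondrially encoded genes, no centring, pseudocounts of 0.1 and 10 CPM, other read minimums and leaving out cells. The work was done in Python 3.11.15 (numpy 2.4.6, pandas 2.3.3; scipy 1.17.1 for intervals; matplotlib 3.10.9 for figures). Scaling factors came from edgeR 4.0.16 and DESeq2 1.42.0 under R 4.3.3.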

Additional observations from a re-analysis of the deposited data

Results flagged for a closer look

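For each value named in the report, the highest and the lowest cell of a day were compared with the nearest other cell, and the gap was divided by the range of the 6 cells, for single genes as log2(CPM + 1). The ratio was above Dixon's 95% critical value in 36 of 258 groups of 6 cells. Chance flags about 1 in 20 groups. Values of single cells with many zeros are skewed, and no cause was tested.

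In day 0 cell 6 the highest values were 81.01 CPM of Col1a2, 23.18 CPM of Lefty1, 16.7 CPM of Cldn7, 6.703 CPM of Gipc1, 4.886 CPM of Pkp2, 3.295 CPM of Triap1, 1.25 CPM of Rab25, 1.023 CPM of Crb3 and 0.7953 CPM of Gm13274. This cell also carried the most feeder markers and is 1 of the 2 day 0 cells low in mitochondrially encoded reads. Day 0 cell 4 was highest for Krt18 (53.62 CPM), summed trophoblast markers (28.96 CPM), Map2k2 (23.27 CPM) and Lin28a (1.034 CPM), and lowest for Egr1 (35.17 CPM). Day 0 cell 3 was highest for the summed markers of two-cell-like cells (262.2 CPM) and for Gata6 (55.56 CPM). Day 0 cell 1, with the most mitochondrially encoded reads, was highest for Dpm3 (92.75 CPM) and lowest for Uqcrq (61.45 CPM), Klf2 (0.4586 CPM) and Tet2 (0.1146 CPM). Atp10d (0.4834 CPM) and Otx2 (0.1611 CPM) were highest in day 0 cell 5, and Esrp1 (2.914 CPM) in day 0 cell 2.

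At day 6, cell 3 was highest for the summed markers of extraembryonic endoderm (112.6 CPM) and lowest for Krt18 (4.834 CPM), Sparc (3.598 CPM) and Aen (0 CPM). Cell 1 had the most gene reads (16367029), the highest sum of markers of two-cell-like cells (92.69 CPM) and the lowest Ndufa2 (122 CPM). Cell 6 was highest for Tbx3 (3.254 CPM), Col1a2 (1.775 CPM) and Gata6 (0.09861 CPM). Dppa5a was lowest in cell 2 (1787 CPM), Rbpj lowest in cell 4 (2.524 CPM) and Cldn4 highest in cell 4 (41.88 CPM).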

How the results depend on the processing

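No paired analysis was possible because each library is 1 cell, no separate cultures are named and the results come from no test. Without centring on the median gene, 2187 genes were 2-fold lower (3493 with it), and the steadily higher and lower genes were 2524 and 347 (1473 and 891). The median CPM over cells gave 1040 lower genes and Zscan4d at 0.142. A pseudocount of 0.1 CPM gave 2023 steadily lower genes, and one of 10 CPM gave 1555 higher, 889 lower, 565 steadily higher and 112 steadily lower genes. A minimum of 1 read gave 2487 and 374 steady genes. Medians of genes per cell at day 0 and day 6 were 10724 and 12005.5 at the deposited depth and 4360 and 6576 with at least 5 reads. Against day 0 cells 5 and 6, mt-Co1 turned to 0.175, mt-Nd1 to 0.945, Zscan4d to 1.89 and the two-cell-like list to 0.226. Leaving out 1 cell at a time moved the two-cell-like list between -2.66 and 0.312 and Zscan4d between -3.50 and 0.0311. Of 2832 recomputed gene ratios, 2743 lay within 1 SD between cells (of the day that varied more) of the reported ratio, 84 lay beyond it and 5 of at least 2-fold turned sign. For 53 lists the numbers were 1235, 35 and 2 of 1272, and over these alternatives the epithelial median ranged from 1.04 to 2.34, the formative from 0.76 to 2.50 and the mesenchymal from -2.14 to -0.36. Many of the recomputed genes were named because their ratio stayed 2-fold without any 1 cell. Their agreement when cells are left out was thus largely set by that choice. An SD between single cells is also a wide limit for a ratio of summed reads. The median gene's log2 ratio was 0.0210 to 0.738 over the settings. The cause was not tested. With 6 cells a day, genes near the floor of 3 reads per cell (0.183 to 0.517 CPM) could not be told from undetected ones.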
